A study of Mus musculus with 6 samples.

Results

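Mitochondrial fatty acid oxidation is represented here by 32 genes of the 24346 in each deposited table, chosen by name: the carnitine shuttle, the acyl-CoA dehydrogenases, the enzymes of the later steps of the β-oxidation spiral, the auxiliary enzymes for unsaturated chains, the electron transfer flavoprotein system and a few related enzymes. All 32 symbols were found, and all 32 passed the filter on low values. RNA-seq was carried out on the renal cortex of C57BL/6 mice that had all received the HF/HC/HS/BA diet, high in fat and cholesterol and with bile salt, for 8 weeks. In 3 samples the diet was given alone, and in the other 3 it contained tofogliflozin, an inhibitor of the sodium-glucose cotransporter SGLT2 of the proximal tubule. No source used here gives the mice's age or sex or the drug's dose, or says whether each library came from 1 mouse, so p-values measure the spread between these libraries. No group on an ordinary diet was analysed here, and each comparison is between drug and no drug on the same diet. The title of the series names renal lipid deposition and PPARα, the nuclear receptor that induces many genes of this pathway, and the question is therefore how these genes differed with the drug.

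Long-chain fatty acids enter the mitochondrial matrix as carnitine esters, made by carnitine palmitoyltransferase 1 on the outer membrane, carried by the translocase Slc25a20 and turned back into acyl-CoA by carnitine palmitoyltransferase 2. Each turn of the spiral then consists of a dehydrogenation, a hydration, a second dehydrogenation and a thiolytic cleavage, and the electrons of the first step pass through the electron transfer flavoprotein to ubiquinone. The proximal tubule, which makes up most of the renal cortex, relies on fatty acid oxidation for much of its ATP.

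The 6 libraries had summed FPKM (fragments per kilobase of transcript, scaled to the size of the library) of 565754 to 633338, and pairs of libraries correlated at 0.980 to 0.990 on the log2 scale. From the steps between low values, depth was estimated at 7650000 to 9890000 fragments. On that scale Echdc1, the lowest member, rests on about 174 to 249 fragments and Echdc3 on about 346 to 924, so counting error was small for nearly all members. The defining markers of the cortex were present, with Slc34a1, the phosphate transporter of the proximal tubule, at 2128 to 2645 FPKM and 4 podocyte markers summing to 87.5 to 95.7 FPKM on the diet and 93.9 to 98.2 FPKM with tofogliflozin.

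In the renal cortex of mice given tofogliflozin, 1 of the 32 genes differed past the threshold (limma, Benjamini-Hochberg adjusted p under 0.05 over 12248 genes tested, of which 0.253% passed, 0.196% higher and 0.0572% lower). It was Echdc3, a member of the enoyl-CoA hydratase family, which rose 2.005-fold. The other 31 did not pass, with limma adjusted p of 0.181 or more. Of the 32, 23 had a difference above 0 (49.7% of all genes tested did), with a median of 0.11 on the log2(FPKM + 1) scale, against -0.00075 over all genes tested. At an unadjusted p under 0.05 there were 5 higher, where 6.7% of all genes tested were, and 1 lower, where 6.39% were. Members whose groups did not overlap numbered 7 (18.5% of all genes tested), 6 of them higher (9.63%) and 1 lower (8.86%). The 95% intervals of the members extended 0.16 to 0.35 to either side of the estimate on the log2 scale, with a median of 0.23. In bulk tissue, fewer cells of a type and less RNA per cell cannot be told apart.

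**Figure D1:**
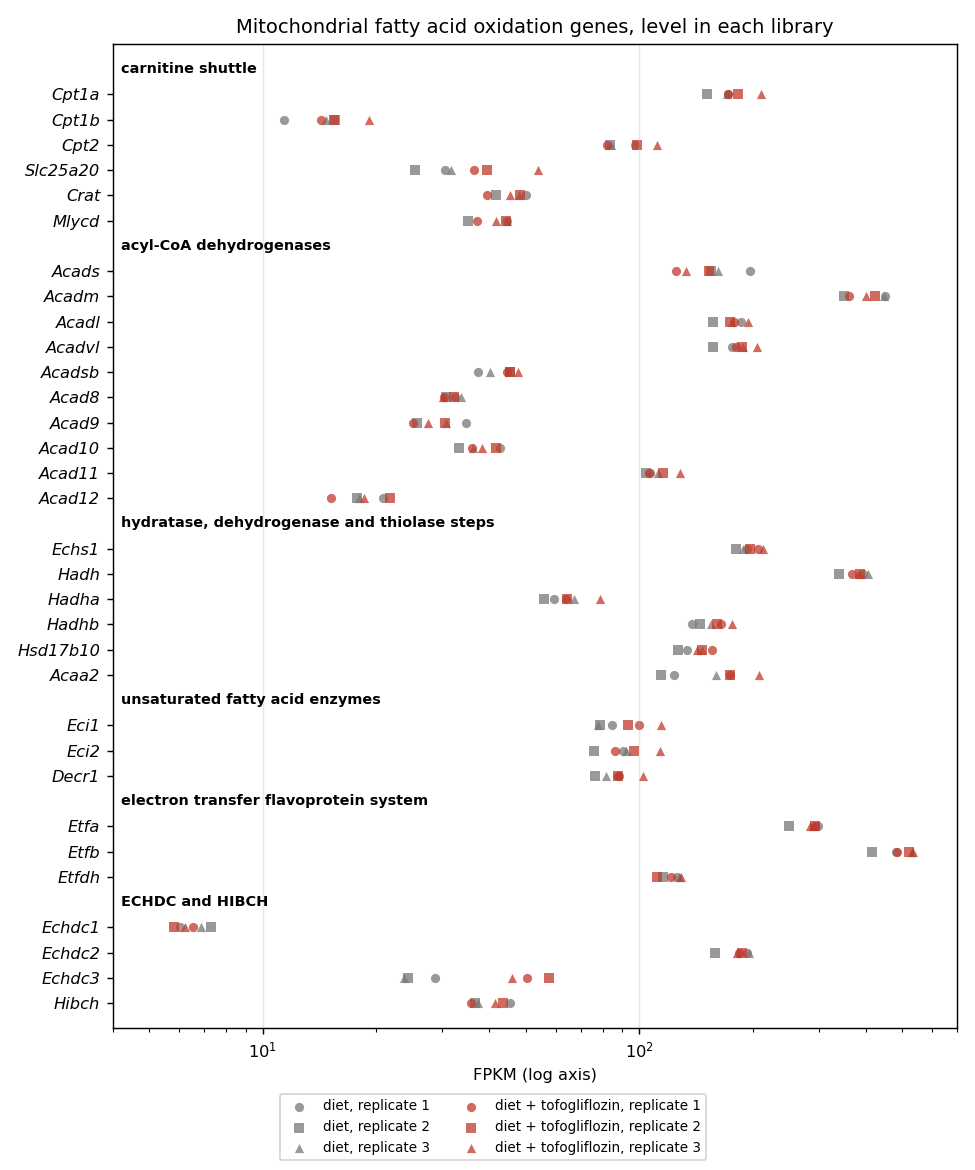
FPKM of each of the 32 genes in each library (horizontal log axis), grouped by role, with grey symbols for the diet and red symbols for the diet with tofogliflozin. Echdc3 is the gene with the widest gap between the groups, 28.6 FPKM in the highest diet library against 45.8 in the lowest tofogliflozin library.

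**Figure D2:**
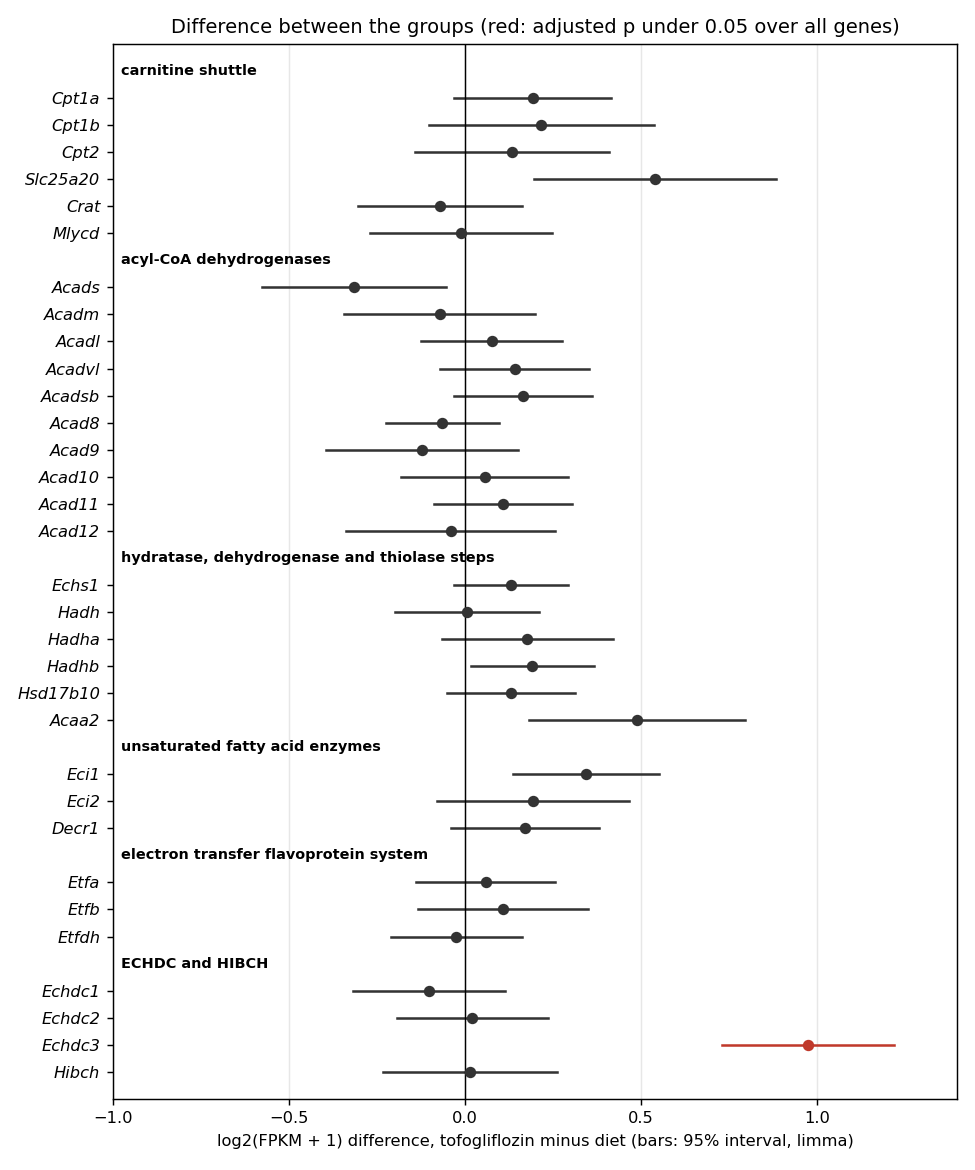
Difference between the groups for each gene (tofogliflozin minus diet on the log2(FPKM + 1) scale), with limma's 95% interval as a bar. Echdc3, in red, is the gene that passed the threshold, and the intervals of Slc25a20, Acaa2, Eci1 and Hadhb lie above 0 and that of Acads below 0.

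The stretches of DNA upstream of 4 of the members, and between Hadha and Hadhb, are shown because they belong to the member that passed the threshold and to others whose groups were separate. They come from RefSeq's promoter table (GRCm38.p6), in which 27 of the 32 members were matched, all but Cpt1b, Crat, Acad9, Decr1 and Acaa2. Each is written 5′ to 3′ on the strand given and ends before the outermost annotated start of the gene. Capitals mark GGGCGG (a GC box) and AGGTCA (the sequence bound by many nuclear receptors) on either strand, where CCGCCC and TGACCT are the same motifs read on the other strand.
Echdc3, chr2:6213034-6213244, minus strand: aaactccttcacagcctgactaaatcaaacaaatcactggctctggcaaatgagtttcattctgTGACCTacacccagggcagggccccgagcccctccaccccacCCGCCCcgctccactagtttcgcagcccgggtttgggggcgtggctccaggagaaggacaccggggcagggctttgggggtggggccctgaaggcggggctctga
Slc25a20, chr9:108661886-108662087, plus strand: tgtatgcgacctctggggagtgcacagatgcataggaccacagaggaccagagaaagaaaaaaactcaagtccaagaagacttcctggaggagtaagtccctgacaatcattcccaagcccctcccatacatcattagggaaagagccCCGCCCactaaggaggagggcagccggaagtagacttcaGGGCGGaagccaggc
Eci1, chr17:24426433-24426640, plus strand: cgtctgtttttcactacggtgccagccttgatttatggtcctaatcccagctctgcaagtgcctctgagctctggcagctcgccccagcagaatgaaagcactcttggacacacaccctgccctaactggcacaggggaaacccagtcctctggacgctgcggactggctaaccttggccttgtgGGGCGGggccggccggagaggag
Acads, chr5:115119347-115119596, minus strand: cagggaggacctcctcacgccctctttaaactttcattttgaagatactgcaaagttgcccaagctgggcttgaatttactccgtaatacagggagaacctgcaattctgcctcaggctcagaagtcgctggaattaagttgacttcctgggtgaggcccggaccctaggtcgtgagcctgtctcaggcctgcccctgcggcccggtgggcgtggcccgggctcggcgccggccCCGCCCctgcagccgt
Hadha to Hadhb, chr5:30155163-30155247, plus strand: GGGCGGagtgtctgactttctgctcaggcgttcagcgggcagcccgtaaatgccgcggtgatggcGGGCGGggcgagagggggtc

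Hadha and Hadhb lie head to head on chromosome 5, with 85 bases between their annotated ends (30155162 and 30155248, mm10), so the last sequence is upstream of both. It holds 2 GC boxes. Echdc3 holds 1 GC box and 1 AGGTCA, Slc25a20 2 GC boxes, and Eci1 and Acads 1 GC box each. In the whole windows, from 250 bases before to 50 bases after the RefSeq start, GGGCGG was found on either strand in 21 of the 27 members and in 35.7% of all 32851 promoters. AGGTCA was found in 5 of the 27 (Acadm, Acadvl, Cpt1a, Echdc3 and Echs1) and in 16.3% of all promoters.

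PPARα binds with its partner RXR to a direct repeat of AGGTCA with a spacer of 1 base. An exact copy of that repeat was in 0 of the 27 members and in 0.0396% of all promoters, and a copy with up to 2 mismatches was in 3 members and in 3.86% of all promoters. These were AGGTCACGGGTCC in Echs1, starting 83 bases before the start, TTACCTTTGCCCT in Etfa (the opposite strand of the repeat), starting 77 bases before it, and AGGTGAAAGGTCG in Slc25a20, starting 6 bases after it. Such matches describe the letters in these windows, and regions farther away were not searched.

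Echdc3 was listed at 28.6, 24.4 and 23.7 FPKM on the diet and at 50.5, 57.5 and 45.8 FPKM with tofogliflozin. Every tofogliflozin library lay above every diet library, the lowest of them by 1.602 times over the highest diet library. The mean rose from 25.6 ± 2.65 to 51.3 ± 5.88 FPKM (SD, n = 3 per group). The log2 difference was 0.97 ± 0.11 (SE; limma adjusted p = 0.0188). Echdc3 had the 10th smallest p of all genes tested, and the 16th largest rise among the 24 genes that passed the threshold as higher. The call was lost without tofogliflozin replicate 1 (limma adjusted p = 0.0720), without tofogliflozin replicate 3 (0.0605) and with no filter on low values (0.0761), while the log2 difference stayed between 0.89 and 1.05 in all 15 other settings tried. Echdc3 is annotated at chr2:6188465-6213033 on the minus strand (mm10), and its exons overlap no exon of another annotated gene.

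The groups of its relatives Echdc2 and Echdc1 overlapped. Echdc2 was listed at 193, 159 and 196 FPKM on the diet and at 184, 187 and 182 FPKM with tofogliflozin, a log2 difference of 0.02 (95% interval -0.19 to 0.24). Echdc1, which encodes a decarboxylase of ethylmalonyl-CoA, was the lowest of all members, at 6.05, 7.28 and 6.83 FPKM against 6.54, 5.82 and 6.20 FPKM. The ratio of Echdc3 to Echdc2 within a library, which a single scaling factor per library leaves as it is, was 0.148, 0.154 and 0.121 on the diet and 0.274, 0.308 and 0.251 with tofogliflozin. Ratios here and below were chosen after the values were seen and are given without a test. Hibch, a hydrolase of valine breakdown, was at 45.4, 36.7 and 37.4 FPKM against 35.8, 43.5 and 41.4 FPKM.

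Members of the carnitine shuttle were present at very different levels. Cpt1a, the liver-type carnitine palmitoyltransferase 1 that sets the rate of entry, was listed at 172, 151 and 171 FPKM on the diet and at 172, 183 and 211 FPKM with tofogliflozin. The muscle-type isoform Cpt1b was at 11.4, 15.5 and 14.8 FPKM against 14.3, 15.5 and 19.1 FPKM. Cpt1a thus stood 9.73 to 15.1 times above Cpt1b in the diet libraries and 11.02 to 12.01 times in the tofogliflozin libraries, and both genes overlapped between the groups. Their log2 differences were 0.19 (95% interval -0.03 to 0.42) and 0.22 (-0.10 to 0.54). Exons of Cpt1b overlap the annotated gene Gm44502 on the same strand, so its value may include reads of both.

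Cpt1b is a gene of muscle and brown fat, so markers of these tissues were set beside it. The muscle genes Ckm, Acta1, Myh2 and Myh4 were listed at 0 in all 6 libraries, and none of the 7 muscle markers reached 1 FPKM (0 of 7). Of 9 adipocyte markers 1 reached 1 FPKM in any library, Cfd at 5.03 FPKM in diet replicate 1, and Lep was listed at 0 throughout. The summed adipocyte markers came to 8.63 FPKM in diet replicate 1 and to 0.572 to 2.002 FPKM in the other libraries. Diet replicate 1 was the library with the lowest Cpt1b. The part of muscle or fat in the values of Cpt1b was not tested.

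Slc25a20, the carnitine-acylcarnitine translocase, was the member of the shuttle with separate groups. It was listed at 30.4, 25.3 and 31.6 FPKM on the diet and at 36.3, 39.5 and 53.9 FPKM with tofogliflozin, so the tofogliflozin libraries all lay above the diet libraries and replicate 3 lay far above the rest. The log2 difference was 0.54 ± 0.15 (SE), with a 95% interval of 0.20 to 0.89, and did not pass (limma adjusted p = 0.201). Without tofogliflozin replicate 3 it was 0.37. Relative to Cpt2, the enzyme that follows it in the pathway, Slc25a20 stood at 0.312, 0.304 and 0.375 on the diet and at 0.442, 0.399 and 0.483 with tofogliflozin. Cpt2 itself was at 97.4, 83.4 and 84.2 FPKM against 82.2, 98.9 and 112 FPKM and overlapped. Crat, the acetyl-carnitine enzyme, and Mlycd, which removes the CPT1 inhibitor malonyl-CoA, had log2 differences of -0.07 (95% interval -0.30 to 0.16) and -0.01 (-0.27 to 0.25).

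Of the 10 acyl-CoA dehydrogenase genes, which encode enzymes of the first step or their relatives, 5 had a difference above 0 and 5 below, with a median of 0.0077. Acads, the short-chain enzyme, was the member lowest relative to the diet. It was listed at 196, 155 and 162 FPKM on the diet and at 125, 153 and 133 FPKM with tofogliflozin. All 3 tofogliflozin libraries lay below the diet libraries, but tofogliflozin replicate 2 and diet replicate 2 were only 153 and 155 FPKM. The log2 difference was -0.32 ± 0.11 (SE), with a 95% interval reaching from -0.58 to -0.05, and missed the threshold (limma adjusted p = 0.287).

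The groups overlapped for the 3 enzymes of longer chains. Acadm, the medium-chain enzyme and the second most abundant member, was at 449, 350.3 and 448 FPKM against 360.0, 422 and 399.7 FPKM. Acadl, the long-chain enzyme, was at 186, 157 and 176 FPKM against 179, 174 and 195 FPKM. Acadvl, the very-long-chain enzyme of the inner membrane, was at 176, 157 and 188 FPKM against 181, 187 and 206 FPKM. Their log2 differences were -0.07 (95% interval -0.34 to 0.20), 0.08 (-0.12 to 0.28) and 0.14 (-0.07 to 0.35). The ratio of Acadvl to Acads was 0.897, 1.01 and 1.16 in the diet libraries and 1.45, 1.22 and 1.54 in the tofogliflozin libraries. That of Acadl to Acads was 0.948, 1.02 and 1.09 against 1.43, 1.14 and 1.46. That of Acadm to Acads was 2.29, 2.26 and 2.762 against 2.88, 2.763 and 2.995. The groups were separate in all 3 ratios, for Acadm by 2.762 against 2.763, and the ratios share Acads, the member with the lowest difference, as their denominator.

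The remaining acyl-CoA dehydrogenases ranged from -0.12 for Acad9, which also serves in the assembly of respiratory complex I, to 0.16 for Acadsb, the short branched-chain enzyme of isoleucine breakdown. Acadsb was at 37.2, 45.3 and 40.1 FPKM on the diet and at 44.5, 45.3 and 47.6 FPKM with tofogliflozin. Acad8, the isobutyryl-CoA dehydrogenase of valine breakdown, was at 32.5, 30.8 and 33.6 FPKM against 30.2, 32.2 and 30.1 FPKM. Acad11 was at 107, 105 and 112 FPKM against 106, 116 and 128 FPKM. Acad10 and Acad12 are close relatives annotated side by side on the minus strand (chr5:121621026-121660514 and chr5:121596775-121618938, mm10) and may share reads. Acad10 was at 42.5, 33.2 and 36.1 FPKM against 36.0, 41.7 and 38.3 FPKM, and Acad12 at 20.9, 17.8 and 17.98 FPKM against 15.1, 21.8 and 18.5 FPKM. All of these overlapped between the groups.

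The 6 genes of the later steps all had differences above 0 (49.7% of all genes tested did), with a median of 0.15, and 3 of them had separate groups with tofogliflozin above (9.63% of all genes tested). Acaa2, the matrix thiolase that cleaves off acetyl-CoA, was listed at 124, 114 and 160.0 FPKM on the diet and at 174, 174 and 207 FPKM with tofogliflozin. Its diet libraries were far apart, and replicate 3 of each group was the highest. The log2 difference was 0.49 ± 0.13 (SE; 95% interval 0.18 to 0.80) and missed the threshold (limma adjusted p = 0.199). Echs1, the short-chain hydratase, was at 193, 181 and 189 FPKM against 207, 196 and 213 FPKM, a log2 difference of 0.13 (95% interval -0.03 to 0.29). Its groups were separate by a narrow margin, 193 against 196 FPKM.

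Hadha and Hadhb encode the α and β subunits of the mitochondrial trifunctional protein, which carries out the last 3 steps on long chains. Hadhb was at 138, 145 and 155 FPKM on the diet and at 165, 161 and 176 FPKM with tofogliflozin, all above the diet libraries, with a log2 difference of 0.19 ± 0.08 (SE; 95% interval 0.02 to 0.37; limma adjusted p = 0.335). Hadha was at 59.5, 55.8 and 67.1 FPKM against 64.1, 64.3 and 78.7 FPKM, which overlapped, with a log2 difference of 0.18 (95% interval -0.07 to 0.42). The ratio of Hadhb to Hadha was 2.32 to 2.60 in the diet libraries and 2.24 to 2.57 in the tofogliflozin libraries. The balance of the subunit transcripts therefore overlapped between the groups, while both transcripts were highest in tofogliflozin replicate 3. Hadh, the medium- and short-chain hydroxyacyl-CoA dehydrogenase, was at 393, 338 and 404 FPKM against 368, 385 and 384 FPKM, and had the smallest difference of all members, 0.0055. Hsd17b10, a dehydrogenase of branched and short chains, was at 134, 127 and 146 FPKM against 156, 147 and 143 FPKM.

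The 3 enzymes that bring double bonds into the spiral all had differences above 0 (49.7% of all genes tested did). Eci1, a mitochondrial enoyl-CoA isomerase, was listed at 84.5, 78.8 and 77.5 FPKM on the diet and at 99.9, 93.2 and 114 FPKM with tofogliflozin. The diet libraries lay close together and all tofogliflozin libraries above them, and the log2 difference was 0.34 ± 0.09 (SE; 95% interval 0.14 to 0.55). With a limma adjusted p of 0.181 it was the member nearest to the threshold among those that did not pass. Eci2, an isomerase of mitochondria and peroxisomes, was at 90.5, 75.8 and 92.3 FPKM against 86.3, 97.1 and 113 FPKM. Decr1, the dienoyl-CoA reductase, was at 88.5, 76.1 and 81.6 FPKM against 87.6, 87.8 and 102 FPKM. Both overlapped between the groups. In all 3 genes tofogliflozin replicate 3 was the highest library, as it was for 18.2% of all genes tested.

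Transcripts of the electron transfer flavoprotein were among the most abundant, and their groups overlapped. Etfb, the β subunit and the highest member, was at 481, 415 and 532 FPKM on the diet and at 485, 519 and 529 FPKM with tofogliflozin. Etfa, the α subunit, was at 298, 250.5 and 289 FPKM against 294, 293 and 284 FPKM. Etfdh, the oxidoreductase that hands the electrons to ubiquinone, was at 126, 116 and 127 FPKM against 122, 112 and 129 FPKM. Their log2 differences were 0.11 (95% interval -0.13 to 0.35), 0.06 (-0.14 to 0.26) and -0.02 (-0.21 to 0.16). In each library Etfb stood above Etfa, by 1.61 to 1.84 times on the diet and 1.65 to 1.86 times with tofogliflozin. Exons of Etfb overlap the annotated genes Gm45233 and Mir7051 on the same strand, so its value may include reads of these.

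**Figure D3:**
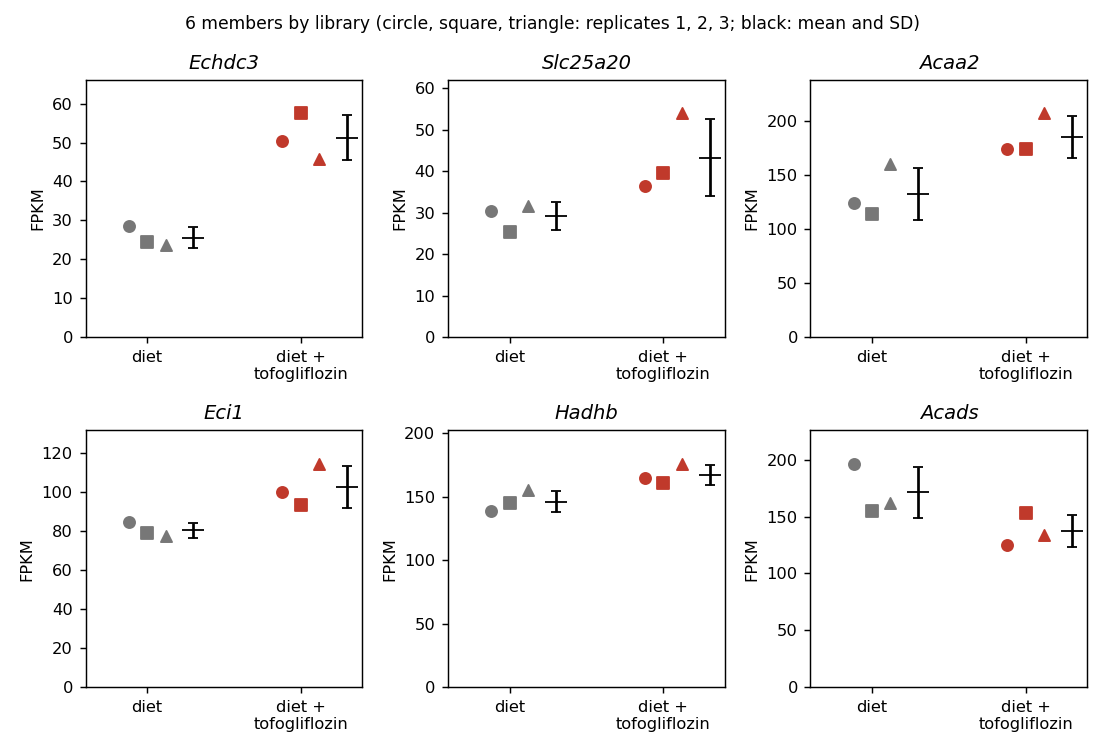
FPKM by library for the 6 members with an unadjusted p under 0.05, with circles, squares and triangles for replicates 1, 2 and 3, and the mean and SD in black. The groups are separate in every panel, by the widest margin for Echdc3 (28.6 against 45.8 FPKM) and by a narrow margin for Acads (155 against 153 FPKM).

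The differences between the members and their spread over the libraries were not evenly shared. Diet replicate 2 was the lowest library for 18 of the 32 genes (56.2%, against 22.0% of all genes tested), and tofogliflozin replicate 3 the highest for 16 of them, against 18.2% of all genes tested. Diet replicate 2 also had the lowest summed FPKM, 565754 against 597459 to 633338 in the other libraries. Low values there were not particular to the members. Most of the citric acid cycle genes read here, Sdhb and Mdh2 among them, were also lowest in that library, while others such as Cs were not. The median deviation of the 32 genes from their own mean was 0.0015, -0.17 and 0.014 in the diet libraries and -0.015, 0.051 and 0.11 in the tofogliflozin libraries, on the log2 scale. By this measure tofogliflozin replicate 1 lay below diet replicates 1 and 3. Without diet replicate 2 the median difference of the members was 0.042 and 18 of 32 were above 0 (49.2% of all genes tested). Without tofogliflozin replicate 3 the median was 0.069 and 21 were above 0. The members together made up 0.659, 0.641 and 0.679% of the summed FPKM in the diet libraries and 0.675, 0.679 and 0.746% in the tofogliflozin libraries.

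**Figure D4:**
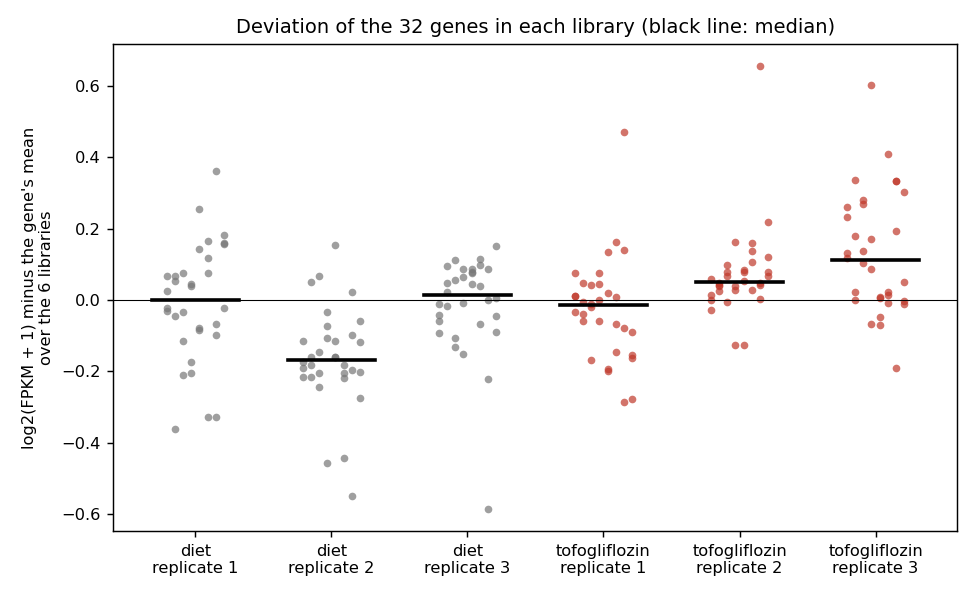
Deviation of each of the 32 genes from its own mean over the 6 libraries (vertical axis, log2 scale), by library, with the median as a black line. The median is lowest in diet replicate 2, at -0.17, and highest in tofogliflozin replicate 3, at 0.11, and the other 4 libraries lie between -0.015 and 0.051.

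The roles did not move alike across the libraries. In tofogliflozin replicate 3 the enzymes of unsaturated chains had a median deviation of 0.30 and the carnitine shuttle one of 0.27, while the acyl-CoA dehydrogenases were at 0.0069. In tofogliflozin replicate 1 the carnitine shuttle was at -0.10 and the acyl-CoA dehydrogenases at -0.074, and the genes of the later steps at 0.076. In diet replicate 2 all 6 role groups were low, from -0.20 for the enzymes of unsaturated chains to -0.13 for the acyl-CoA dehydrogenases.

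Markers of the cell types of the cortex were read beside these values. The 10 proximal tubule markers summed to 4225 to 4647 FPKM in the diet libraries and to 4061 to 4249.6 FPKM with tofogliflozin, with 5 of 10 above 0 in their difference. The 5 markers of the last proximal segment summed to 932 to 1085 FPKM and 727 to 879 FPKM, with 4 of 5 below 0. The 6 collecting duct markers summed to 211 to 271 FPKM and 279 to 332 FPKM, with 5 of 6 above 0, and the 3 markers of the distal convoluted tubule to 347 to 384 FPKM and 389 to 448 FPKM, with 3 of 3 above 0. The 7 macrophage markers summed to 3219, 4084 and 630.2 FPKM on the diet and to 1222, 1556 and 811 FPKM with tofogliflozin, with 7 of 7 below 0, and were highest in diet replicate 2. Most of that sum was 1 gene, Cd74, at 3090.3, 3838 and 541 FPKM against 1128, 1447 and 739.98 FPKM. None of the markers of these 5 lists was listed at 0 in all libraries. The 4 markers of the thick ascending limb summed to 1612 to 2222 FPKM and 1820 to 1913 FPKM, with 2 of 4 above 0. Above 0 were 3 of 5 endothelial markers, 2 of 5 of fibroblasts and pericytes and 0 of 2 tested lymphocyte markers (49.7% of all genes tested). No tested marker of any list passed the threshold (0 by limma). The part of shifts in the markers in the values of the members was not tested.

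The level of the members, which FPKM scales by the length of the transcript, spanned from Etfb at 493 to Echdc1 at 6.46 FPKM (mean of 6 libraries). Overlaps with other genes and the annotation used, which is not stated, limit comparison between genes. Of the 32, 19 were in the top 10% of the genes tested and 29 in the top 25%. The order was Etfb, Acadm, Hadh and Etfa at the top, then a dense group from Echs1 (197 FPKM) to Hadha (64.9 FPKM). Of 31 neighbouring pairs in this order, 26 had overlapping ranges over the 6 libraries. The gaps without overlap followed Hadh, Etfa, Hadha, Acad9 and Cpt1b. Echdc3, at a mean of 38.4 FPKM, stood 25th of 32.

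Outside the 32 genes, 49 genes of neighbouring pathways were read, of which 47 passed the filter on low values. None passed the threshold (0 by limma). At an unadjusted limma p under 0.05 there were 4 higher and 2 lower, where 6.7% and 6.39% of all genes tested were. Bbox1, among the 4 higher, passed the filter through the tofogliflozin libraries, so its place in that count was in part set by the filter. Of the 47, 26 had a difference above 0, against 49.7% of all genes tested, with a median of 0.033. The 16 citric acid cycle genes had 9 above 0 and a median of 0.016. Citrate synthase, Cs, was at 110.5, 111 and 118 FPKM on the diet and at 103, 106 and 104 FPKM with tofogliflozin, with every tofogliflozin library below the diet libraries. The 6 genes that handle propionate from odd chains had 5 above 0 and a median of 0.062. Pccb, a subunit of propionyl-CoA carboxylase, was at 204, 195 and 203 FPKM against 217, 219 and 217 FPKM, and Mut, the methylmalonyl-CoA mutase, at 93.8, 90.1 and 89.3 FPKM against 97.0, 89.5 and 98.6 FPKM. Differences between these lists and the members were not tested.

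Of the 5 ketone body enzymes, 2 were above 0, with a median of -0.066. Bdh1, which interconverts the ketone bodies, was at 62.3, 43.5 and 54.1 FPKM against 41.0, 46.6 and 36.2 FPKM, a log2 difference of -0.36 (95% interval -0.68 to -0.03), and overlapped.

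Of the 13 tested genes in a list of fuel-switch genes and regulators, 8 were above 0, with a median of 0.13. Pdk4, the kinase that holds back pyruvate oxidation, was at 15.6, 15.4 and 19.4 FPKM on the diet and at 22.2, 32.4 and 53.5 FPKM with tofogliflozin, all higher and far apart, with a log2 difference of 0.98 ± 0.27 (SE; limma adjusted p = 0.200). Ppara was at 33.9, 36.6 and 27.98 FPKM against 36.3, 39.7 and 49.9 FPKM, and overlapped, with a log2 difference of 0.34 (95% interval 0.03 to 0.66) that missed the threshold (limma adjusted p = 0.339). The coactivator gene Ppargc1a was at 13.3, 17.5 and 12.2 FPKM against 17.8, 14.6 and 17.3 FPKM. Acacb, which makes the malonyl-CoA that inhibits CPT1, was at 3.04, 4.15 and 4.61 FPKM against 5.37, 4.21 and 5.26 FPKM. Ppara and Pdk4 were both highest in tofogliflozin replicate 3, as were 16 of the 32 members (18.2% of all genes tested). Ppargc1a and Acacb were highest in tofogliflozin replicate 1.

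Among the 8 genes of carnitine supply, 7 were tested, 2 of them above 0, and Tmlhe was listed at 0 in all libraries. Slc22a5, the high-affinity carnitine transporter, was at 134, 129.8 and 150.3 FPKM on the diet and at 148, 145 and 167 FPKM with tofogliflozin, and overlapped. Slc22a4, a related transporter, was at 36.5, 36.0 and 35.4 FPKM against 30.3, 31.2 and 33.2 FPKM, with all tofogliflozin libraries lower (log2 difference -0.19, 95% interval -0.34 to -0.03; limma adjusted p = 0.290). Bbox1, the last enzyme of carnitine synthesis, was low, at 0.986, 0.410 and 0.830 FPKM against 1.72, 1.30 and 3.14 FPKM, and passed the filter through the tofogliflozin libraries, so its separation was in part set by the filter.

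**Figure D5:**
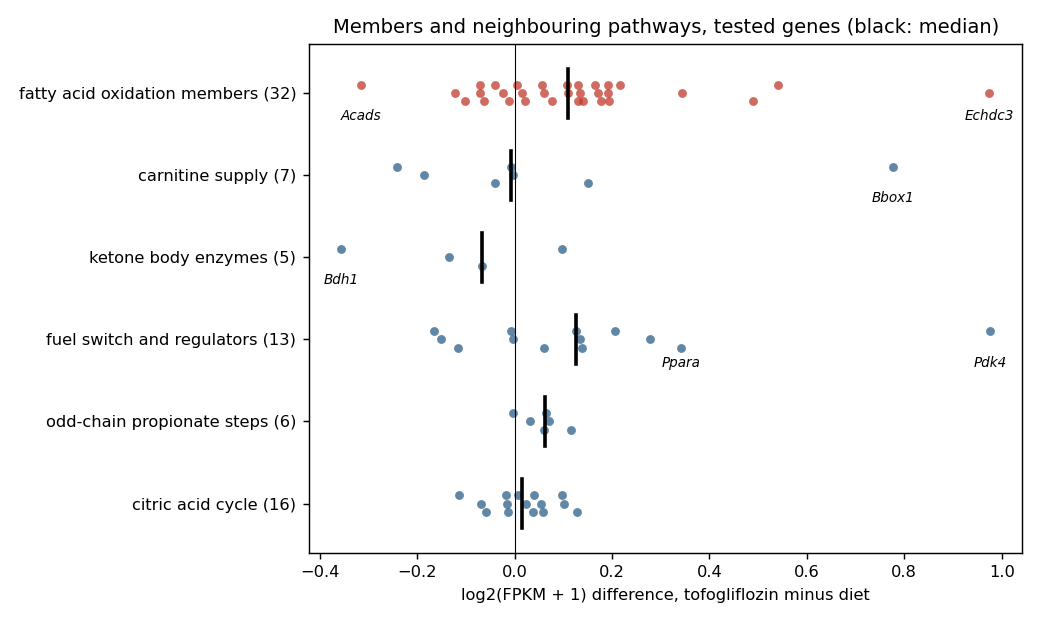
Difference between the groups (horizontal axis, log2(FPKM + 1) scale) for the 32 members, in red, and the tested genes of 5 neighbouring lists, in blue, with the median of each list in black. The medians lie between -0.066 for the ketone body enzymes and 0.13 for the fuel-switch genes and regulators. Of the tested genes, 2 are drawn without a point but are included in the medians and in the counts in parentheses.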

How the data were processed

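For each library the authors deposited FPKM values by gene symbol, per the file headers. Per the submitters' processing notes the build is mm10 and the tools include Cuffdiff 2.2.1, TopHat2 2.1.1, SAMtools 0.1.18 and Bowtie2 2.2.8. Their roles, the annotation and the use of strand are not stated in any source used here. Exons of 11 members overlap another annotated gene (GENCODE M21), 8 of them on the opposite strand. Those of Cpt1b, Etfb, Acad9 and Acad11 overlap a gene on the same strand, so their values may include its reads. As the use of strand is unknown, values of the 8 with an overlap on the opposite strand may also include reads of the other gene. Per the labels, libraries came from a stranded mRNA kit, with 3 samples per group.

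Depth was estimated from low values: of 6204 values below 0.3 FPKM in every library, 79.2% lay within 1% of a whole number of steps of that gene's minimum. Lengths of 329 single-transcript genes set the scale. Genes reaching 1 FPKM in 3 or more libraries were tested on log2(FPKM + 1), which understates changes of low genes, with limma 3.58.1 in R 4.3.3 (mean-variance trend, two-sided, Benjamini-Hochberg over 12248 genes, threshold 0.05). SE and 95% intervals are limma's. The fit was checked on simulated data drawn independently for each gene and library, so without shifts shared by the genes of a library. Figures used matplotlib 3.10.9.

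Any member may be named; of neighbouring lists, 7 fixed genes and the 2 of smallest p in each, of which some are not reported here. Members and lists were chosen with earlier results of these data known.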

Additional observations from a re-analysis of the deposited data

How the results depend on the processing

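The settings were another pseudocount (0.1), no filter or one of 5 FPKM, 3 other scalings, no trend, a robust trend, a replicate block and leaving out each library. Past the threshold, the count over all genes was 31 and became 1 with no filter (17726 genes tested), 20 at 5 FPKM, 47 with upper-quartile scaling and 61 with a robust trend, and 2 to 66 with a library left out. The count of members past it, 1, became 0 with no filter and ranged from 0 to 1 with a library left out. The cause of these moves was not tested. The replicate numbers are not said to pair mice, and same-numbered libraries deviated with correlations of -0.055, -0.062 and 0.051. With the replicate block 26 genes and 1 member passed.

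The sign was kept in all 15 settings by 23 members. For the other 9 the difference was near 0. With a library left out, it ran from -0.15 to 0.010 for Crat, -0.12 to 0.059 for Mlycd, -0.021 to 0.15 for Acad10, -0.16 to 0.088 for Acad12, -0.073 to 0.055 for Hadh, -0.016 to 0.11 for Etfa, -0.074 to 0.032 for Etfdh, -0.076 to 0.075 for Echdc2 and -0.043 to 0.11 for Hibch. With library sums scaled to be equal Hadh was at -0.0028, and with quantile normalization Mlycd was at 0.0036 and Echdc2 at -0.0061. With 3 libraries per group, differences smaller than the intervals given could not be resolved.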
